A study of Homo sapiens with 4 samples.

Results

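DNA damage repair genes were examined in PANC-1, an established cell line from a human pancreatic cancer, after knockdown of SIRT1, an NAD-dependent protein deacetylase. The genes were 53 listed repair and checkpoint genes, found by symbol among the 16878 genes of each expression table. RNA-seq had been run on 4 libraries, 2 labelled Control and 2 labelled siSIRT1, from cells taken 48 h after transfection with control molecules or with a small interfering RNA (siRNA) against SIRT1. Expression was given as FPKM, the fragments of a gene scaled to its transcript length and to the mapped fragments of the library. All 4 libraries came from the same cell line, no other allele or agent is named in the labels, and the sequence of the control molecule was not used here. The study lists 1 siRNA for SIRT1, so the group rests on 1 sequence. Nothing in the labels says that the 2 libraries of a group came from separate cultures, so the p-values measure only the spread between these libraries, which may be technical.

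Cells repair damaged DNA through several pathways. Homologous recombination copies an intact sister strand to mend a broken chromosome, end joining ligates the broken ends directly, and the Fanconi pathway removes links between the strands. Mismatch repair corrects copying errors, base excision repair replaces single damaged bases, nucleotide excision repair cuts out bulky lesions, and the checkpoint kinases halt the cell cycle while repair runs. SIRT1 itself is known as a deacetylase of several repair proteins, a protein-level activity that RNA-seq does not measure.

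The listed siRNA and its guide strand are shown because the knockdown rests on them. The guide is the reverse complement of the listed strand, and the capitals mark its seed, bases 2 to 8.
siRNA strand as listed: gugucaugguuccuuugca
guide strand: uGCAAAGGaaccaugacac
The letters pairing with this seed, CCTTTGC, occurred in the annotated 3′ UTR of 10 of the 52 repair genes tested (19.2%) and in 15.6% of the 12018 genes with an annotated 3′ UTR. Among the 3 repair genes that fell, 0 held them, against 252 of the 1574 genes with an annotated 3′ UTR that fell. The 10 genes were BRCA1, CLSPN, ERCC2, ERCC6, FANCC, MRE11A, RAD50, RAD51D, XRCC2 and XRCC5, and their median log2 fold change was 0.18. The median of the repair genes without the letters was 0.10, and over all genes the order was the other way, 0.06 with the letters and 0.08 without.

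SIRT1 measured 10.5 and 10.3 FPKM in Control against 1.80 and 2.05 FPKM in siSIRT1, so 18.6% of the Control level remained. The depth estimated from the smallest steps between FPKM values was 8700000 to 9120000 reads per library. The summed FPKM was 397094 to 402197 in Control and 408390 to 426279 in siSIRT1. Of the PANC-1 markers, 6 of 6 had a mean of at least 1 FPKM, summing to 6450 to 6820 FPKM in Control and 6340 to 6790 FPKM in siSIRT1. Within these sums, the mesenchymal markers VIM and CD44 fell to 69.0% and 54.4% of the Control mean (adjusted p 0.00126 and 4.22e-05), while the keratins KRT18 and KRT19 rose (0.035 and 0.0178, passing in 7 of 11 alternatives each). Their part in the results was not tested. The leukocyte markers PTPRC and CD14 each had a mean of at least 1 FPKM, with sums of 6.32 to 6.71 FPKM in Control and 4.46 to 5.42 FPKM in siSIRT1. The part of that difference in the results was not tested. The 3 endothelial markers reached at most 0.75 FPKM, and the 3 acinar markers in the tables at most 0.15 FPKM. In bulk libraries such as these, fewer cells with a transcript and less of it per cell cannot be told apart.

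The repair genes spanned a wide range of levels. In Control, 5 had a mean of at least 50 FPKM, 18 lay from 10 to 50 FPKM and 30 lay under 10 FPKM, of which 4 were under 2 FPKM. The highest was XRCC6, which encodes the Ku70 subunit that caps broken ends, at 138 ± 4.17 FPKM (SD, n = 2), followed by its partner XRCC5 (Ku80) at 98.4 ± 0.15 FPKM and by the abasic site nuclease APEX1 at 81.7 ± 2.56 FPKM. These 3 levels stood apart beyond the spread between libraries. ERCC1 followed at 69.0 ± 6.31 FPKM, then PRKDC at 51.6 ± 1.72 FPKM and PARP1 at 49.6 ± 1.15 FPKM, and the last 2 overlapped. At the low end stood BRCA2, WRN, BARD1 and FANCB. The share of the summed FPKM held by the 53 genes came to 0.221% and 0.223% for Control against 0.213% and 0.227% for siSIRT1, so the siSIRT1 libraries enclosed the Control ones.

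Loss of SIRT1 mRNA went with a mixed pattern among the repair genes. The filter of 1 FPKM, taken on the mean of all libraries, was passed by 52 of the 53, all but the Fanconi core subunit FANCB. By limma on log2(FPKM + 1), with Benjamini-Hochberg adjustment over all 12191 genes tested, 14 of the 52 (26.9%) had an adjusted p under 0.05. The share over all genes tested was 37.1%, so calls were not more frequent among the repair genes than in the transcriptome. The rises numbered 11 (21.2%, against 24% of all genes tested), and the falls numbered 3 (5.77%, against 13.1% of all genes tested). The groups did not overlap in 36 repair genes (69.2%), against 69% of all genes tested. The median log2 fold change was 0.14 over the repair genes and 0.07 over all genes tested. Changes were small, with 4 of 52 (7.69%) past a fold of 1.5 on this scale, against 11% of all genes tested.

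The number of calls depended on single Control libraries. Without Control replicate 1 it was 9 and without Control replicate 2 it was 8, while it was 17 without siSIRT1 replicate 1 and 14 without siSIRT1 replicate 2. Calls over all genes tested were also fewer without either Control library than in the fit on all 4 libraries. With median-of-ratios scaling 8 repair genes rose and 5 fell, and over all genes the split went from 2930 higher and 1591 lower to 2023 higher and 2053 lower. The 6 genes CLSPN, CHEK2, RAD51D, ERCC1, FANCF and LIG3 kept their calls in each of the 11 alternative fits and in each of the 4 fits without 1 library.

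**Figure D1:**
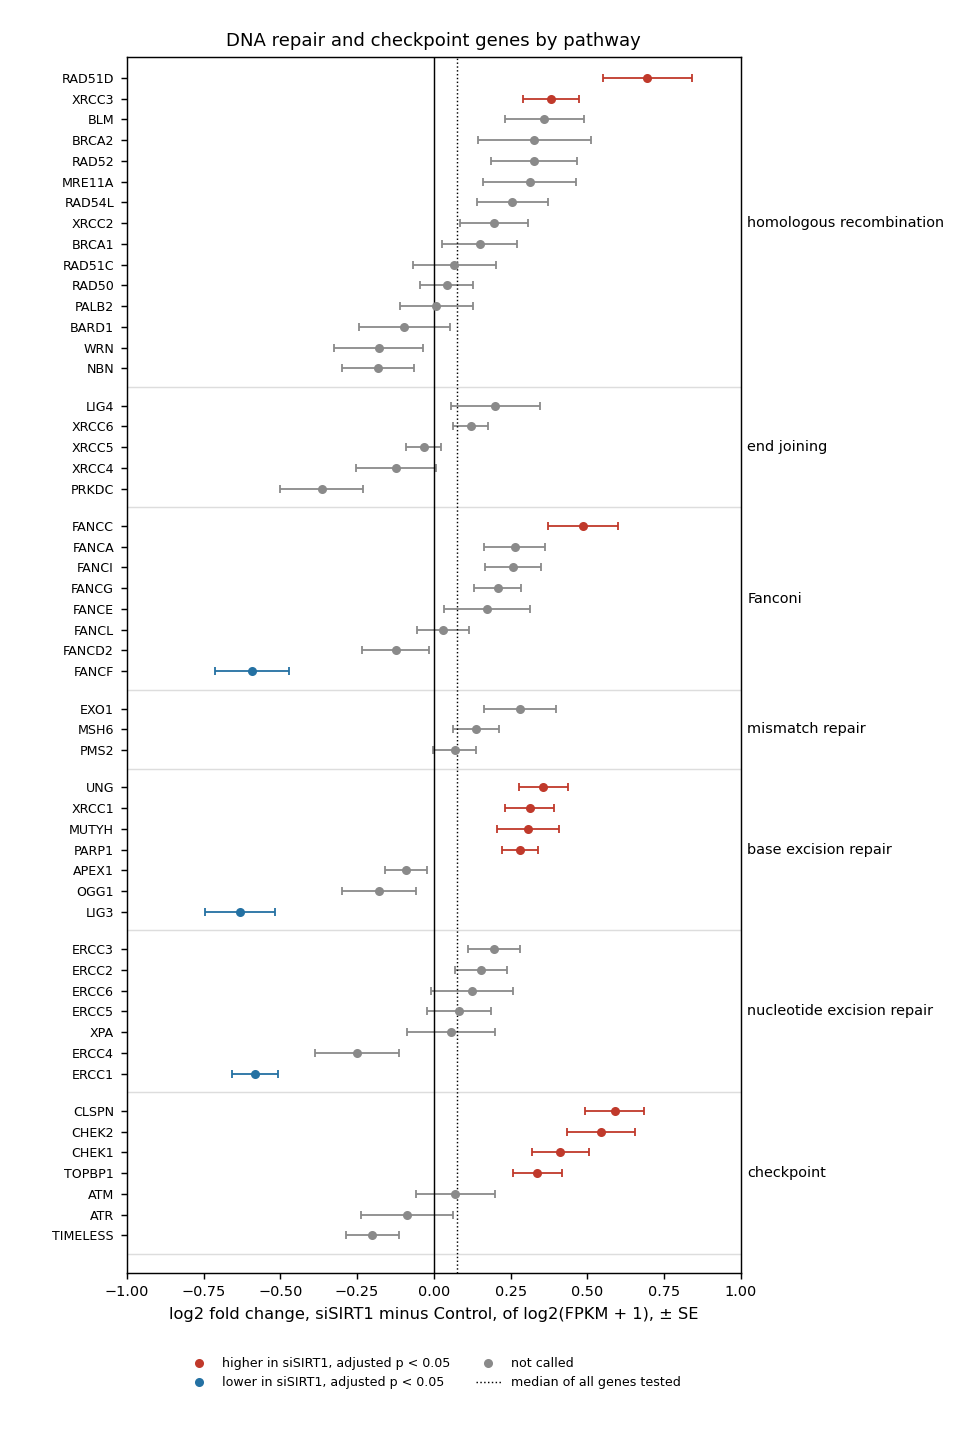
Log2 fold change of log2(FPKM + 1), siSIRT1 minus Control, for the 52 repair genes tested, grouped by pathway and ordered within it (points are limma estimates, bars the SE, n = 2 libraries per group). The 11 red points rose and the 3 blue points fell at an adjusted p under 0.05, and the dotted line is the median of all genes tested, 0.07.

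The checkpoint group held 4 rises among 7 genes tested (57.1%, against 24% of all genes tested), and its other 3 genes did not pass. The 4 that rose were CHEK1 and CHEK2, the kinases that relay the damage signal, and CLSPN and TOPBP1, the adaptors through which ATR activates CHEK1. CLSPN (chromosome 1, 36185819 to 36235579, minus strand, GRCh37) was at 6.24 and 6.67 FPKM in Control against 10.2 and 10.2 FPKM in siSIRT1, and the groups lay well apart. Its log2 fold change was 0.59 (SE 0.10, adjusted p 0.00191). CHEK2 (chromosome 22, 29083731 to 29138410, minus strand) was at 6.42 and 7.05 FPKM in Control versus 9.47 and 11.1 FPKM in siSIRT1, with a log2 fold change of 0.54 (SE 0.11, adjusted p 0.00545). Both siSIRT1 values of CHEK2 lay above both Control values, although the annotation lists 7 pseudogene copies of CHEK2 that could share its reads, so its value is uncertain to that extent. CHEK1 was at 10.3 and 9.21 FPKM in Control against 13.6 and 13.1 FPKM in siSIRT1, with a log2 fold change of 0.41 (SE 0.09, adjusted p 0.00883). TOPBP1 was at 13.1 and 13.6 FPKM in Control versus 16.7 and 17.6 FPKM in siSIRT1, with a log2 fold change of 0.34 (SE 0.08, adjusted p 0.0111). The groups did not overlap in either gene, but the call of TOPBP1 was lost without Control replicate 1 (adjusted p 0.0949) or 2 (0.0617), and that of CHEK1 without Control replicate 2 (0.0943).

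The apical kinases, which start the checkpoint signal, did not pass the test. ATM, the kinase recruited to broken ends, was at 10.5 and 10.9 FPKM in Control against 9.72 and 13.0 FPKM in siSIRT1. ATR, the kinase of stalled forks, was at 4.43 and 4.73 FPKM in Control versus 3.56 and 5.04 FPKM in siSIRT1. In both genes the 2 siSIRT1 libraries enclosed the Control libraries, with adjusted p-values of 0.704 and 0.682. The fork protection gene TIMELESS was at 15.2 and 16.4 FPKM in Control against 13.1 and 14.2 FPKM in siSIRT1. It was lower without overlap but did not pass (log2 fold change -0.20, adjusted p 0.102). The 11 alternatives gave adjusted p-values from 0.0159 to 0.141, and TIMELESS passed in 6 of them. Whether the kinases differ in response from the genes downstream of them was not tested.

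**Figure D2:**
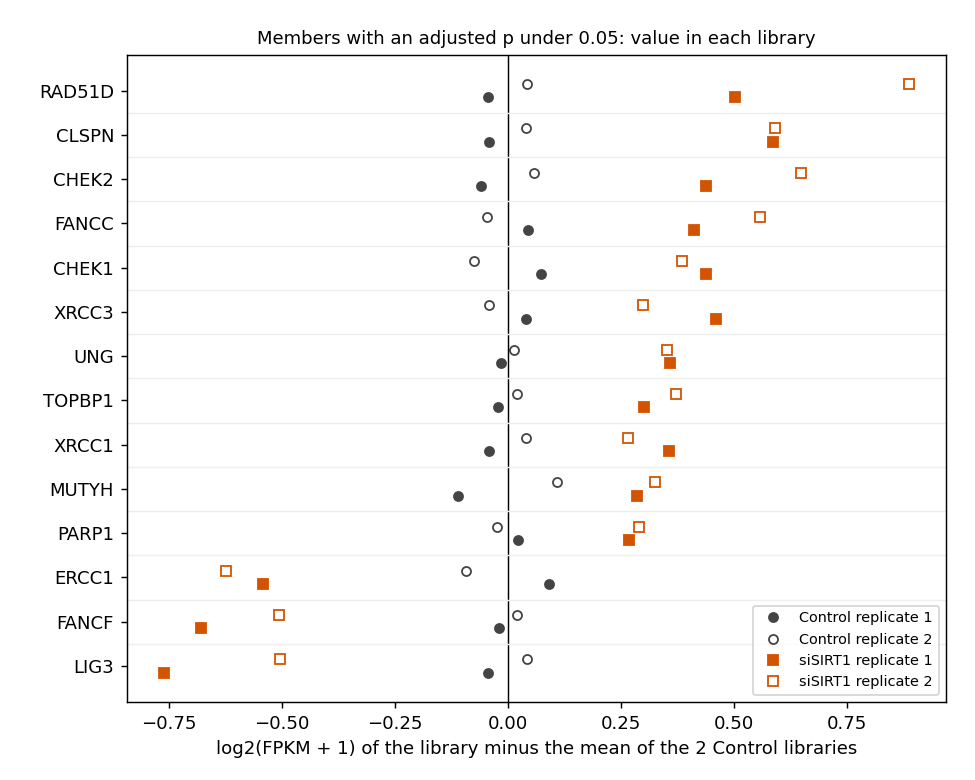
Value of each of the 14 repair genes with an adjusted p under 0.05 in each of the 4 libraries, as log2(FPKM + 1) minus the mean of the 2 Control libraries (circles Control, squares siSIRT1, filled replicate 1, open replicate 2). In all 14 genes both siSIRT1 libraries lay on the same side of both Control libraries, and the largest distance between siSIRT1 replicates was that of RAD51D.

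Base excision repair held calls in 5 of 7 genes (71.4%, against 37.1% of all genes tested), 4 rises and 1 fall. Without Control replicate 1 it held 1 call, that of LIG3, and the checkpoint group 3, and without Control replicate 2 each held 2. The rises were those of the glycosylases UNG and MUTYH, of the strand-break sensor PARP1 and of the scaffold XRCC1. The fall was that of LIG3, the ligase that works in complex with XRCC1. LIG3 was at 10.6 and 11.3 FPKM in Control versus 6.05 and 7.42 FPKM in siSIRT1, a fall to 61.5% of the Control mean. Its log2 fold change was -0.63 (SE 0.11, adjusted p 0.00307). XRCC1 was at 15.8 and 16.8 FPKM in Control against 21.1 and 19.8 FPKM in siSIRT1, with a log2 fold change of 0.31 (SE 0.08, adjusted p 0.0145). The 2 partners moved in opposite directions, with no overlap between groups in either, although the rise of XRCC1 did not pass under every alternative.

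LIG3 (chromosome 17, 33307531 to 33336762, plus strand, GRCh37) shares 3754 annotated bases with RFFL on the other strand, and whether the counting used strand is unknown. RFFL itself was at 4.33 and 5.54 FPKM in Control versus 4.68 and 5.33 FPKM in siSIRT1, so the groups overlapped there. PARP1, which marks strand breaks with ADP-ribose made from NAD, was at 50.4 and 48.8 FPKM in Control against 59.95 and 60.9 FPKM in siSIRT1. Its log2 fold change was 0.28 (SE 0.06, adjusted p 0.00667), and the 2 siSIRT1 values were close to each other. UNG, which removes uracil from DNA, was at 12.2 and 12.5 FPKM in Control versus 16.1 and 16.04 FPKM in siSIRT1, with a log2 fold change of 0.36 (SE 0.08, adjusted p 0.00834). MUTYH, which removes adenine opposite oxidised guanine, was at 9.74 and 11.5 FPKM in Control against 13.1 and 13.5 FPKM in siSIRT1, with a log2 fold change of 0.31 (SE 0.10, adjusted p 0.0405). Both genes lay higher in siSIRT1 without overlap.

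Several of these calls were narrow. The call of MUTYH held in only 2 of the 11 alternatives, with adjusted p-values from 0.0145 to 0.177, and those of XRCC1 and PARP1 were lost with median-of-ratios scaling (adjusted p 0.0603 and 0.0501). XRCC1 was also lost with the length trend removed (0.0693). Leaving out Control replicate 1 ended the calls of PARP1, UNG and XRCC1 (adjusted p 0.0535, 0.0755 and 0.136), and so did leaving out Control replicate 2 (0.0984, 0.055 and 0.0559). The call of MUTYH held without Control replicate 2 (0.0437) and was lost without any other library (0.0802 to 0.331). The annotation lists 2 pseudogene copies each of PARP1 and UNG, which could share reads with them. MUTYH shares 1838 annotated bases with a protein-coding gene on the same strand that has no expression value here. The uncalled genes of the pathway were APEX1 and OGG1, the glycosylase for oxidised guanine. APEX1 was at 83.5 and 79.9 FPKM in Control versus 80.6 and 72.9 FPKM in siSIRT1, and OGG1 was at 13.2 and 11.9 FPKM in Control against 12.4 and 9.66 FPKM in siSIRT1. Their groups overlapped, and the adjusted p-values were 0.331 and 0.283, with 0.0453 for OGG1 without siSIRT1 replicate 1. OGG1 shares 2175 annotated bases with CAMK1 on the other strand, which rose from 2.69 and 3.06 FPKM to 6.94 and 7.14 FPKM (adjusted p 0.000273).

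Nucleotide excision repair held 1 call among 7 genes (14.3%, against 37.1% of all genes tested). It was the fall of ERCC1 (chromosome 19, 45910592 to 45982086, minus strand, GRCh37). ERCC1 encodes the partner of the nuclease ERCC4 and also serves in crosslink repair. It was at 73.5 and 64.6 FPKM in Control versus 47.0 and 44.4 FPKM in siSIRT1, so 66.2% of the Control mean remained. Its log2 fold change was -0.58 (SE 0.08, adjusted p 0.000627), the smallest adjusted p among the repair genes, and it stayed at or under 0.0165 over the alternatives. About 1943 to 2170 reads lay behind the Control values and 1317 to 1349 behind the siSIRT1 values, counted over a canonical transcript of 3379 bases. ERCC1 shares 1593 annotated bases with POLR1G on the other strand (CD3EAP in the tables), which fell from 21.8 and 24.4 FPKM to 19.2 and 19.6 FPKM (log2 fold change -0.24, adjusted p 0.0446).

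The nuclease partner ERCC4 was at 4.35 and 5.35 FPKM in Control against 3.56 and 4.26 FPKM in siSIRT1, lower without overlap and with an adjusted p of 0.183. The helicases of the repair factor TFIIH were slightly higher without passing. ERCC2 was at 16.6 and 18.7 FPKM in Control versus 20.1 and 19.4 FPKM in siSIRT1 (adjusted p 0.184). ERCC3 was at 13.5 and 13.1 FPKM in Control against 16.01 and 14.7 FPKM in siSIRT1 (adjusted p 0.102). The flap nuclease ERCC5 was at 5.91 and 6.12 FPKM in Control versus 6.57 and 6.28 FPKM in siSIRT1 (adjusted p 0.575). Its exons are shared with the readthrough gene BIVM-ERCC5 on the same strand, so its value is uncertain. BIVM-ERCC5 rose from 1.49 and 1.58 FPKM in Control to 2.40 and 2.62 FPKM in siSIRT1 (log2 fold change 0.47, adjusted p 0.021). The damage verifier XPA and the transcription-coupled factor ERCC6 overlapped between groups, and the 6 uncalled genes had log2 fold changes from -0.25 to 0.20.

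Homologous recombination held 2 calls among 15 genes (13.3%, against 37.1% of all genes tested), both rises. Its median log2 fold change was 0.196, against 0.07 over all genes tested, with 12 genes above 0 and 3 below. Regardless of sign, the median change was 0.196, against 0.213 over all genes tested. The median SD between replicates was 0.138, against 0.0875 over all genes tested, and the median level 5.55 against 10.3 FPKM. The part of spread and level in the low share of calls was not tested. RAD51D (chromosome 17, 33419240 to 33448541, minus strand, GRCh37), a subunit of a recombination mediator complex, was at 3.49 and 3.76 FPKM in Control against 5.55 and 7.55 FPKM in siSIRT1. It had the largest log2 fold change of the repair genes, 0.69 (SE 0.14, adjusted p 0.00603), and its siSIRT1 replicates differed more from each other than its Control replicates. RAD51D shares 905 annotated bases with a protein-coding gene on the same strand that has no expression value here. Its value is uncertain to that extent. XRCC3, which pairs with RAD51C, was at 12.1 and 11.4 FPKM in Control versus 16.5 and 14.7 FPKM in siSIRT1, with a log2 fold change of 0.38 (SE 0.09, adjusted p 0.0115). The groups did not overlap. Its call was lost without Control replicate 2 (adjusted p 0.0907), and it shares 5756 annotated bases with KLC1 on the other strand, which was at 22.9 and 22.1 FPKM in Control against 20.3 and 21.8 FPKM in siSIRT1.

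The other 13 genes of the pathway did not pass, with log2 fold changes from -0.18 to 0.36. The breast cancer genes were among them. BRCA1 was at 5.79 and 5.57 FPKM in Control versus 5.74 and 7.14 FPKM in siSIRT1, with overlap between the groups (adjusted p 0.379). BRCA2, a mediator of strand exchange at the break, was at 1.01 and 1.18 FPKM in Control against 1.20 and 2.13 FPKM in siSIRT1 (adjusted p 0.200). The higher BRCA2 mean in siSIRT1 came from replicate 2: without siSIRT1 replicate 1 the log2 fold change was 0.58 (adjusted p 0.0333), and without replicate 2 it was 0.07 (0.745). The partners BARD1 and PALB2 and RAD51C overlapped between groups, with adjusted p-values of 0.646, 0.966 and 0.733.

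Of the MRN complex that senses broken ends, RAD50 was at 13.7 and 14.8 FPKM in Control versus 14.2 and 15.3 FPKM in siSIRT1, and the groups overlapped (adjusted p 0.736). Its nuclease MRE11A was at 5.51 and 5.42 FPKM in Control against 5.84 and 8.42 FPKM in siSIRT1 (adjusted p 0.142), and it passed without siSIRT1 replicate 1 (0.0135). NBN was at 6.44 and 5.51 FPKM in Control versus 4.97 and 5.30 FPKM in siSIRT1 (adjusted p 0.256). The 3 subunits thus shared no direction that passed the test. RAD50 shares 8124 annotated bases with a protein-coding gene on the same strand that has no expression value here, so the value of RAD50 is uncertain. The annealing factor RAD52 was at 4.99 and 6.76 FPKM in Control against 7.12 and 7.98 FPKM in siSIRT1 (adjusted p 0.101), and it passed without Control replicate 2 (0.0393). XRCC2 was at 6.88 and 8.15 FPKM in Control versus 8.36 and 9.11 FPKM in siSIRT1 (adjusted p 0.203). The motor RAD54L and the helicase BLM were also higher without overlap, and BLM came close to the threshold at an adjusted p of 0.0566. The helicase WRN lay lower without overlap, with an adjusted p of 0.365.

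End joining held no call among its 5 genes (0%, against 37.1% of all genes tested), and 1 of them (PRKDC) had an unadjusted p under 0.05. Ku70 and Ku80, the first proteins to bind an end, were close between groups, and the annotation lists 5 pseudogene copies of XRCC6. XRCC6 was at 141 and 135 FPKM in Control against 151 and 149 FPKM in siSIRT1, with a log2 fold change of 0.12 (adjusted p 0.134). XRCC5 was at 98.3 and 98.5 FPKM in Control versus 97.5 and 94.7 FPKM in siSIRT1, with a log2 fold change of -0.03 (adjusted p 0.681). The kinase PRKDC, which Ku recruits, was at 50.4 and 52.9 FPKM in Control against 33.4 and 47.5 FPKM in siSIRT1. It was lower without overlap, with a log2 fold change of -0.37 (adjusted p 0.0634). PRKDC passed in 7 of the 11 alternatives on all 4 libraries. Their adjusted p-values ran from 0.00170 with the replicate block to 0.220 without the filter. Its SD was 9.92 FPKM in siSIRT1 against 1.72 FPKM in Control. Without siSIRT1 replicate 2 it passed, with a log2 fold change of -0.61 (adjusted p 0.00154), and without siSIRT1 replicate 1 the log2 fold change was -0.12. The ligase LIG4 and its scaffold XRCC4 overlapped between groups, with adjusted p-values of 0.317 and 0.494.

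In the Fanconi group, 2 of 8 genes tested passed (25.0%, against 37.1% of all genes tested), in opposite directions. Both encode subunits of the core ligase. FANCF (chromosome 11, 22644079 to 22647369, minus strand, GRCh37) was at 5.08 and 5.25 FPKM in Control versus 2.85 and 3.34 FPKM in siSIRT1, so 59.9% of the Control mean remained. Its log2 fold change was -0.59 (SE 0.12, adjusted p 0.00555), with about 146 to 154 reads behind the Control values and 80 to 97 behind the siSIRT1 values. FANCC was at 4.71 and 4.36 FPKM in Control against 6.36 and 7.15 FPKM in siSIRT1, with a log2 fold change of 0.49 (SE 0.11, adjusted p 0.0102). The groups lay apart in both genes, and the call of FANCC was lost without Control replicate 2 (adjusted p 0.0768). FANCF overlaps GAS2 on the other strand by 315 annotated bases, and GAS2 was at 0.12 FPKM or less in every library. FANCC overlaps AOPEP on the other strand by 165 annotated bases.

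The other Fanconi genes lay between -0.12 and 0.26 on the log2 scale. FANCI, whose protein pairs with that of FANCD2 on damaged DNA, was at 14.2 and 16.01 FPKM in Control versus 17.3 and 19.1 FPKM in siSIRT1 (adjusted p 0.0546, and 0.0473 without siSIRT1 replicate 1). FANCI shares 458 annotated bases with POLG on the other strand, which rose from 25.8 and 26.4 FPKM to 36.4 and 35.2 FPKM (adjusted p 0.00122). FANCG was at 14.4 and 14.0 FPKM in Control against 16.8 and 16.4 FPKM in siSIRT1 (adjusted p 0.0681), and FANCA was higher as well (adjusted p 0.0672), beside its overlapping neighbor ZNF276 on the other strand, which rose (adjusted p 0.0376). These 3 were higher without overlap but narrowly missed the threshold. FANCL, the ubiquitin ligase subunit, was at 16.8 and 15.4 FPKM in Control versus 17.0 and 15.9 FPKM in siSIRT1 (adjusted p 0.805), and FANCD2 and FANCE also overlapped. FANCB was at 0.58 and 0.54 FPKM in Control against 0.40 and 0.85 FPKM in siSIRT1, about 10 to 22 reads per library, and the groups overlapped (adjusted p 0.859 with no filter).

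The mismatch repair group held 3 genes and no call (0%, against 37.1% of all genes tested), and 1 gene (EXO1) had an unadjusted p under 0.05. MSH6, of the mismatch-binding dimer, was at 26.8 and 27.2 FPKM in Control versus 28.3 and 31.3 FPKM in siSIRT1 (adjusted p 0.179). PMS2, of the nicking dimer, was at 22.6 and 23.0 FPKM in Control against 23.5 and 24.5 FPKM in siSIRT1 (adjusted p 0.486), and its 12 annotated pseudogene copies make its value uncertain. The nuclease EXO1 was at 4.83 and 4.30 FPKM in Control versus 5.46 and 6.05 FPKM in siSIRT1 (adjusted p 0.0919). All 3 were higher in siSIRT1 without overlap, as were 5342 of the 12191 genes tested. Their log2 fold changes ran from 0.07 to 0.28, against the median of 0.07 over all genes tested. The value of PMS2 lay below that median and turned negative with quantile normalization, median-of-ratios scaling and the GC trend removed (-0.0095, -0.017 and -0.014).

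**Figure D3:**
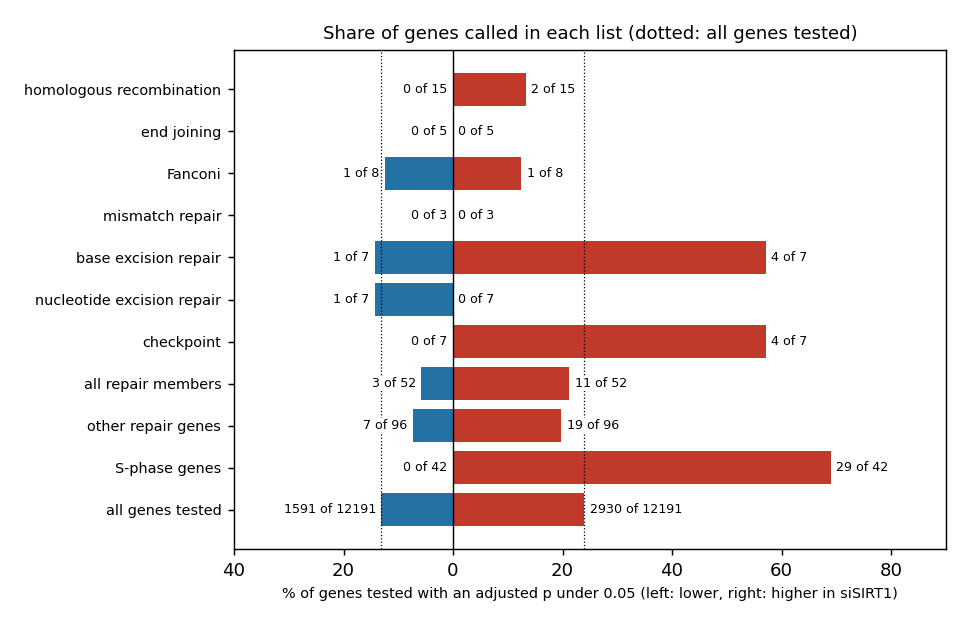
Percentage of the genes tested in each list with an adjusted p under 0.05, lower in siSIRT1 to the left and higher to the right, with counts beside the bars and dotted lines at the shares of all genes tested (24% higher, 13.1% lower). The checkpoint and base excision repair lists and the S-phase list extend past the line for rises, and end joining and mismatch repair have no bar.

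Other genes of the same pathways, 98 by a list chosen for this comparison, gave close shares of calls. Of the 96 tested, 26 passed (27.1%, against 37.1% of all genes tested), 19 higher and 7 lower. Their median log2 fold change over the 96 was 0.13. The largest rise was that of CDC25A, the phosphatase that the checkpoint kinases target for destruction, from 1.67 and 1.56 FPKM to 4.74 and 5.36 FPKM (log2 fold change 1.21, adjusted p 0.000219). The glycosylase NEIL1 followed with a log2 fold change of 0.90, from 2.09 and 2.27 FPKM to 4.82 and 5.06 FPKM. RPA2, of the complex that coats single-stranded DNA, was at 16.6 and 14.3 FPKM in Control versus 26.7 and 27.3 FPKM in siSIRT1 (log2 fold change 0.77, adjusted p 0.000311). The glycosylase TDG came next, with a log2 fold change of 0.56. BRCC3, the deubiquitinase of a BRCA1 complex, rose by 0.47 on the log2 scale. These 5 were the largest rises whose groups did not overlap.

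Among the largest falls were genes of other repair steps. CCNH, the cyclin of the TFIIH kinase, was at 16.04 and 16.08 FPKM in Control against 7.83 and 7.90 FPKM in siSIRT1 (log2 fold change -0.94, adjusted p 0.000107), and the libraries of each group were close to each other. HLTF, a fork remodeller, was at 25.4 and 27.1 FPKM in Control versus 12.5 and 16.2 FPKM in siSIRT1 (log2 fold change -0.83, adjusted p 0.000781). The Fanconi core subunit FAAP100 fell by 0.46 on the log2 scale (adjusted p 0.00306).

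Many repair and checkpoint genes are known to be transcribed as cells enter S phase, so genes of DNA synthesis were read beside them. Of 42 S-phase genes, none of them among the 53, 29 passed (69.0%, against 37.1% of all genes tested). All 29 were rises, a direction called in 24% of all genes tested. The median log2 fold change was 0.40, against 0.07 over all genes tested. With median-of-ratios scaling 24 of the S-phase genes passed, and with the replicate block 31. PCNA, the replication clamp, was at 44.3 and 47.6 FPKM in Control versus 70.8 and 69.7 FPKM in siSIRT1 (log2 fold change 0.60, adjusted p 0.000221). Of the replicative helicase genes, MCM2, MCM3, MCM4, MCM5 and MCM6 rose, by 0.24 (MCM5) to 0.60 (MCM4) on the log2 scale. MCM7 was at 49.4 and 46.8 FPKM in Control against 50.2 and 49.3 FPKM in siSIRT1 and overlapped (adjusted p 0.567). The call of MCM5 held in only 2 of the 11 alternatives. Of the 42 S-phase genes, 13 did not pass. The log2 fold change was above 0 in 37 (88.1%, against 60.1% of all genes tested) and below 0 in 5. The list was chosen with earlier results of these data known. The part of the S-phase genes in the 11 rises among the repair genes was not tested.

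Promoters of the repair genes were searched for letters bound by cell cycle factors. RefSeq promoter windows, 250 bases before to 50 after an annotated start in GRCh38.p14, were matched by gene ID for 47 of the 52 genes. The E2F octamers TTTCCCGC, TTTCGCGC, TTTGCCGC and TTTGGCGC, on both strands, occurred in 11 of 47 genes (23.4%), against 6.81% of the 9984 genes tested that had a window and 3.31% of all 35116 windows. Among the genes that rose, 4 of 11 held an octamer (CLSPN, TOPBP1, FANCC and UNG), among those not called 7 of 33 (21.2%), and among those that fell 0 of 3. Over all genes tested with a window, octamers were held by 7.71% of those that rose, 6.81% of those not called and 5.12% of those that fell. The matches that lie wholly before the start, with their flanks, are printed here with the octamer in capitals, on the strand of the gene and from 5′ to 3′.
FANCC (rose), chr9:95317858-95317897, minus strand: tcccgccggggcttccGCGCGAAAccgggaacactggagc
FANCC (rose), chr9:95317732-95317771, minus strand: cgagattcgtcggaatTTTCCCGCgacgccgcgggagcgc
UNG (rose), chr12:109098093-109098132, plus strand: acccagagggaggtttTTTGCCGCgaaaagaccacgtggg
FANCA (not called), chr16:89816796-89816835, minus strand: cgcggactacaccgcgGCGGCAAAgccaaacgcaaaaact
PMS2 (not called), chr7:6009126-6009165, minus strand: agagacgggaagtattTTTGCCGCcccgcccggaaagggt
FANCC carried 2 octamers, 172 and 46 bases before a start. The UNG octamer lay 63 bases before its start. FANCA and PMS2 held octamers too and did not pass the test. Octamers thus occurred both among genes that rose and among genes not called, and the difference in shares was not tested. The letters CCAAT occurred in 53.2% of the repair genes and 43.1% of the genes tested, and the cell cycle homology letters TTTGAA and TTCGAA in 14.9% and 15.1%. The homology letters were held by 4 of the 11 genes that rose (36.4%) and by 2 of the 33 not called (6.06%), while over all genes tested the shares were 14.1% of those that rose and 15.3% of those not called. These splits were not tested. Over all windows CCAAT and the homology letters had shares of 34.6% and 16.4%. A gene was counted once per motif, whether its matches overlapped or lay in more than 1 window. Repair genes had 1.51 windows on average against 1.45 for the genes tested. A match describes letters and not a bound site.

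Transcript length moved with the spread between the siSIRT1 libraries. Over the 52 repair genes, the difference of siSIRT1 replicate 2 minus replicate 1 in log2(FPKM + 1) rose with the canonical transcript length (Pearson r 0.763, Spearman rho 0.732, across genes of the same 2 libraries, which are not independent). All 20 repair genes of at least 5000 bases were higher in replicate 2, by a median of 0.20, while the 15 under 3000 bases had a median of -0.09. Between the Control libraries r was 0.134. Over all 12090 genes tested with a length, r was 0.395 between the siSIRT1 libraries and 0.133 between the Control libraries. The difference of siSIRT1 minus Control followed length only weakly in the repair genes, with r of -0.054, against -0.158 over all genes tested, where the median difference was 0.14 under 3000 bases and 0.01 from 5000 bases. The repair genes were long, with a median of 4118 bases against 3281 bases for all genes tested.

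**Figure D4:**
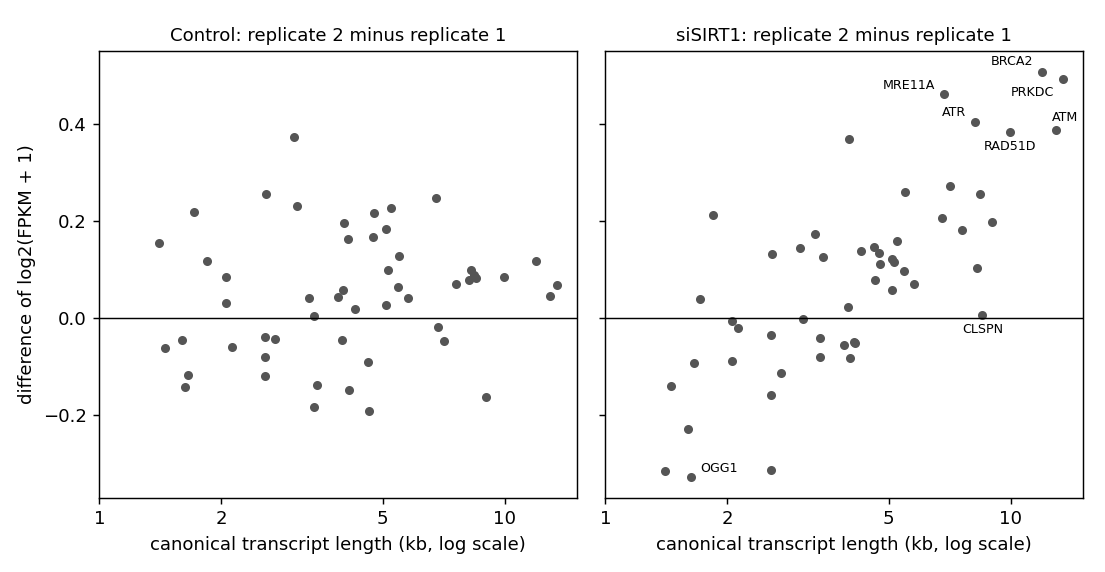
Difference of log2(FPKM + 1) between replicate 2 and replicate 1 against canonical transcript length (log scale) for the 52 repair genes, for Control at left and siSIRT1 at right, each point a gene. At right the points climb from left to right (r 0.763), with 6 long genes at the top right labelled, and at left they do not (r 0.134). Labels were added to genes picked for their values.

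The genes that stood at the top of this relation included PRKDC, BRCA2, MRE11A, ATR, ATM and RAD51D. Their differences between siSIRT1 replicates ran from 0.38 (RAD51D) to 0.51 (BRCA2), and were 0.49 for PRKDC and 0.46 for MRE11A. For BRCA2 the SD was 0.66 FPKM in siSIRT1 against 0.12 FPKM in Control. CLSPN, at 8512 bases, was an exception, with a difference of 0.005. After removal of each library's trend on length, a fit chosen after the data were seen, 17 repair genes passed, 10 higher and 7 lower. PRKDC, TIMELESS, APEX1 and OGG1 were then among the falls, BLM joined the rises, and MUTYH and XRCC1 no longer passed. The other 12 calls kept their direction and their side of the threshold in that fit, among them CHEK1 (adjusted p 0.0113), XRCC3 (0.0278) and UNG (0.0361).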

How the data were processed

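RNA-seq of PANC-1 cells was deposited by the authors as 1 table per library, with FPKM per gene and no further scaling stated. The submitters' processing notes name Bowtie2, HISAT and RSEM without role or version. The genome build and the use of strand in counting are not given in the sources used here. FPKM depends on the library total, so abundant genes can shift all others. The unit is not a count, and no count test was run.

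Genes whose mean over the 4 libraries was 1 FPKM or more were fitted with limma 3.58.1 (R 4.3.3, lmFit and eBayes with trend) on log2(FPKM + 1), all 4 libraries in 1 fit, two-sided, with Benjamini-Hochberg adjustment over all 12191 genes and a threshold of 0.05. Fold changes on this scale understate those of low genes. The fit was tested on simulated data. A p that misses the threshold does not show that the groups were alike. Positions and canonical transcripts came from GENCODE release 44 on GRCh37, and promoters from RefSeq on GRCh38.p14. Read numbers behind genes were derived from estimated depths and canonical transcript lengths, which may differ from the lengths used for FPKM. They are approximate and carry errors of depth and length besides counting error. Python 3.11.15 with pandas 2.3.3 was used for the tables.

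The members and lists were chosen with earlier results of these data known. Each gene was placed in 1 pathway. The genes named were SIRT1, all repair genes with a call (at most 6 per pathway), the 3 uncalled ones of highest mean FPKM in each pathway, the 5 largest rises and falls of the other repair genes without overlap, and PCNA with MCM2 to MCM7. Further uncalled genes were named after their values were seen. Some items that this rule or the marker lists would name are not reported here. The alternatives were another pseudocount (0.1), no filter, quantile, median-of-ratios or equal-sum scaling, the replicate number as a block, eBayes without trend, each library left out and, chosen after the data were seen, removal of length or GC trends (lowess span 0.3), with and without the block.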

Additional observations from a re-analysis of the deposited data

How the results depend on the processing

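The 14 calls among the repair genes were recomputed under 11 alternatives and 4 fits that each left out 1 library. None changed direction. Counting each gene in each fit, 141 values stayed past the threshold and 13 did not under the 11 alternatives, and 42 stayed and 14 did not without 1 library. With 1 library left out, the lone library was assumed to vary like the other group. The number of calls was 8 to 17 without 1 library (5 to 13 higher, 3 to 4 lower) and 13 to 18 otherwise, over all genes 2691 to 4608 without 1 library, and for the other repair genes 16 to 29. Falls numbered 5 with median-of-ratios scaling and with the GC trend removed, and 7 with the length trend removed, alone or with the replicate block, and with the GC trend removed with the replicate block. The median log2 fold change of the repair genes, 0.14, was 0.090 with quantile normalization, 0.086 with equal FPKM sums, 0.064 with median-of-ratios scaling, 0.10 with the length trend removed and 0.067 with the GC trend removed, the block leaving both as they were, and 0.094 to 0.20 without 1 library. The cause was not tested.

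With the replicate block alone, 18 repair genes passed (14 higher, 4 lower), among them the 14, with BLM, FANCI, PRKDC and RAD52 added, and 5393 of all genes. Replicate numbers are shared by 2 libraries each. The deviations of libraries with the same number from their group means had a correlation of 0.123 across genes. With 2 libraries per group this value cannot show whether libraries of the same number were paired. The main fit took the numbers as names only.

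Uncalled genes near 0 changed sign. With quantile normalization PALB2, RAD50, FANCL and PMS2 were at -0.0365, -0.033, -0.049 and -0.0095. With median-of-ratios scaling PALB2, RAD51C, RAD50, FANCL, PMS2, XPA and ATM were at -0.066, -0.0073, -0.041, -0.053, -0.017, -0.014 and -0.011. With equal sums PALB2, RAD50 and FANCL were at -0.045, -0.016 and -0.028. With the length trend removed, block or not, PALB2, RAD51C, FANCL and XPA were at -0.047, -0.0375, -0.098 and -0.089. With the GC trend removed, block or not, PALB2, RAD50, FANCL, PMS2 and XPA were at -0.058, -0.015, -0.020, -0.014 and -0.013. Without 1 library BARD1 ran from -0.23 to 0.034, PALB2 from -0.091 to 0.11, RAD51C from -0.090 to 0.22, RAD50 from -0.0096 to 0.093, FANCL from -0.0285 to 0.090, XPA from -0.10 to 0.21, ATM from -0.12 to 0.26 and ATR from -0.29 to 0.11. About 10 to 22 reads per library lay behind FANCB, the lowest of the repair genes.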
